A study of Mus musculus with 9 samples.

Results

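The genes of ciliary transport and of the inherited ciliopathies were followed in retinal organoids of the mouse, small aggregates of ES or iPS cells that form retinal tissue while they float in medium. They were chosen by name. They are all genes on the array whose names begin with Ift, Bbs, Tctn or Nphp followed by a number, or with Dync2 or Rpgr, together with Arl3, Arl6, Arl13b, Cep290, Lca5, Unc119, Mks1 and Tmem67. The rule found 42 gene names, of which 41 could be tested among 23593 genes tested in all. There were 9 samples, 1 each from WT, B4KO (knockout of Bhlhb4, now named Bhlhe23) and Isl1KO (knockout of Isl1) organoids on each of the differentiation days 10, 16 and 23 (written DD10, DD16, DD23), and each sample pooled 5 organoids. All groups were grown by the same quick-reaggregation method, and the labels do not give the age of an animal, a Cre driver or the number of clones behind a line.

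The primary cilium is a membrane-covered microtubule rod that most vertebrate cells carry, and the light-sensing outer segment of a photoreceptor is a modified cilium. Intraflagellar transport (IFT) trains move cargo along it, with the IFT-B complex and kinesin-2 carrying cargo to the tip and the IFT-A complex and dynein-2 bringing it back. The BBSome, an adaptor recruited by the GTPase ARL6, carries membrane proteins out of the cilium, and the transition zone at its base, which becomes the connecting cilium of photoreceptors, gates what may enter. Mutations in these genes cause retinal degeneration, alone or together with kidney, brain and limb disease.

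Each value is the log2 of the processed intensity of a gene's brightest probe, minus the log2 of the 75th percentile of the gene spots on its array. Probes differ in brightness for reasons unrelated to RNA, so values are compared between arrays for 1 probe and never between genes. Of the 59305 gene spots on an array, between 57.3% and 67.8% were well above background and 0 were saturated. All 41 tested genes were well above background on all 9 arrays. The exception was Ift88os, the antisense RNA at the Ift88 locus, which was well above background on 0 of 9 arrays, with readings from -7.44 (Isl1KO at DD23) to -6.21 (WT at DD16), and was not tested. The brighter Isl1 probe read lower in Isl1KO than in WT on all 3 days, and the other Isl1 probe read lower at DD16 and DD23 but higher at DD10. The Bhlhe23 probe read lower in B4KO than in WT on all 3 days as well, but also lower in Isl1KO than in WT at DD16 and DD23. It was well above background on 6 of 9 arrays. Its B4KO readings at DD16 and DD23 (-4.88 and -6.64) and its Isl1KO reading at DD23 (-6.56) were dim. They lay below the lowest signal well above background on those arrays (-4.59, -4.71 and -5.40). The sources used here do not say where these probes lie relative to the deleted parts. The B4KO arrays were on 1 slide and the WT and Isl1KO arrays on another, and each day had its own column of arrays. The B4KO line therefore cannot be told apart from its slide, nor a day from its column. On their shared slide the Isl1KO arrays were in row 1 and the WT arrays in row 2. The difference between these lines cannot be told apart from that between the rows.

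Between DD16 and DD23 the ciliary genes rose more often than they fell. In limma's additive fit of line and day, 22 of 41 were higher at DD23 and 2 were lower (adjusted p under 0.05), with 17 not passing, where 19.3% of all genes tested were called higher and 21.9% lower. The median difference was 0.33 on the log2 scale, against 0.01 for all genes tested. Between DD10 and DD16 the balance was the other way, with 2 higher, 14 lower and 25 not passing, where 21.9% of all genes were called higher and 18.8% lower. The median difference was -0.11, against 0.03 for all genes. From DD10 to DD23, 19 were higher, 11 lower and 11 did not pass, beside 31.6% and 29.2% of all genes. An F test over the days called 32 of 41, where it called 65.7% of all genes. All 41 were among the 18852 genes well above background on all 9 arrays, of which the F test called 14003. Of these 18852 genes, 21.1% were higher and 28.5% lower at DD23 than at DD16, with 24 and 2 of the 41. At DD16 against DD10 the shares were 25.4% and 23.1%, with 3 and 14 of the 41. The largest gap between the lines on any 1 day ranged over the 41 genes from 0.10 to 0.68, with a median of 0.30.

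**Figure D1:**
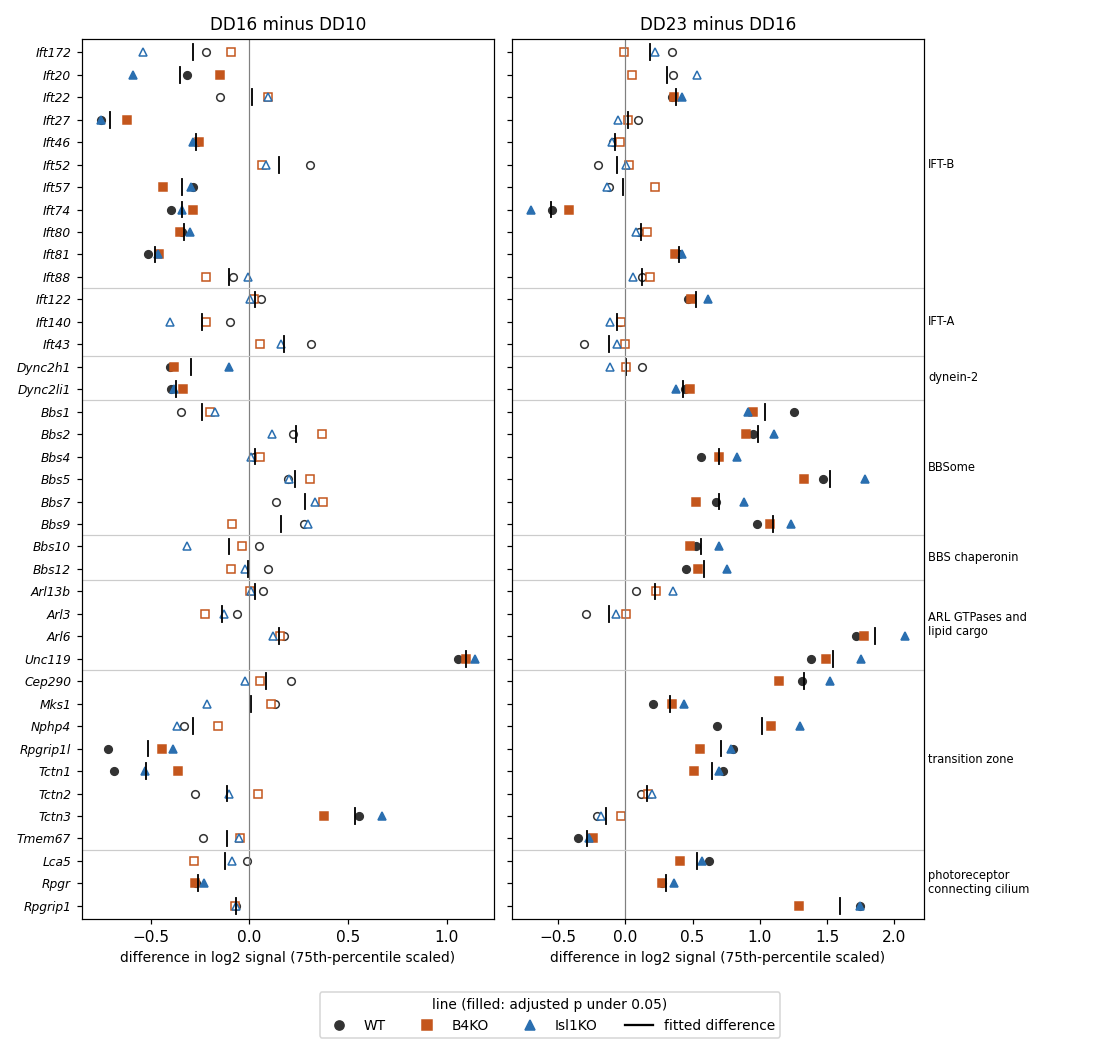
Difference in log2 signal between days for 39 of the 41 tested ciliary genes (rows, grouped by role), from DD10 to DD16 (left) and from DD16 to DD23 (right). Each marker is 1 line (WT circle, B4KO square, Isl1KO triangle), filled where the adjusted p was under 0.05, and the black bar is the fitted difference. All 6 BBSome genes lie to the right of 0 at DD23 minus DD16 in all 3 lines, while 7 of 11 IFT-B genes are called lower at DD16 minus DD10.

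These counts depend on the reference against which an array is scaled. Relative to the 75th percentile, the mean log2 signal of 7 synthetic spike-in probes was 3.24 to 3.41 at DD10, 3.78 to 3.91 at DD16 and 3.67 to 3.83 at DD23. With arrays scaled to these probes instead, a choice made after seeing the data, the median of all genes tested was -0.47 at DD16 minus DD10, and 37 ciliary genes were lower and 1 was higher. Of all 23593 genes tested, 15744 were then called in this step, both directions together. This scaling moves all genes of a comparison by the same amount and leaves their order as it was. For DD23 minus DD16 the median of all genes was then 0.08, with 9438 of them called. Of the ciliary genes, 24 were higher and 1 was lower. All differences below are relative to the 75th percentile, which follows the bulk of genes and not RNA per organoid. In such bulk samples fewer cells of a type and less RNA per cell cannot be told apart.

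The BBSome genes moved together. All 6 of its subunits that the rule names, Bbs1, Bbs2, Bbs4, Bbs5, Bbs7 and Bbs9, rose from DD16 to DD23, with a median difference of 1.01, after 0 of the 6 had passed from DD10 to DD16 (median 0.20, or -0.31 with 4 of 6 lower under spike-in scaling). The 6 were called higher from DD16 to DD23 under each scaling tried, and 5 of 6 with the mean of a gene's probes. Bbs5, a subunit that binds membrane lipids, read -0.90, -1.03 and -0.99 in WT, B4KO and Isl1KO at DD10, then -0.71, -0.72 and -0.79 at DD16, and 0.76, 0.60 and 0.99 at DD23. The DD10 and DD16 values lie close together and every DD23 value is above them. The rise from DD16 was 1.53 ± 0.10 on the log2 scale (SE, 3 arrays per day), a 2.88-fold difference (limma, adjusted p = 0.00076), and the 2 other Bbs5 probes rose by 1.63 and 0.83. Bbs9, part of the complex's core, read 0.49, 0.45 and 0.57 at DD16 and 1.48, 1.53 and 1.80 at DD23, a difference of 1.10. Bbs1, which contacts ARL6, rose by 1.04 and Bbs2 by 0.98. A dim Bbs1 probe, well above background on 4 of 9 arrays, gave -0.34 and did not pass. The smallest rises were those of Bbs4 and Bbs7, 0.70 and 0.69.

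Arl6, Bbs10 and Bbs12, which serve the BBSome, also rose from DD16 to DD23. Arl6, whose GTP-bound protein recruits the complex to membranes, read 0.80, 0.84 and 0.78 in WT, B4KO and Isl1KO at DD10 and 0.97, 0.99 and 0.90 at DD16. At DD23 it read 2.69, 2.76 and 2.98. The 3 DD23 arrays stand apart from the other 6, by 1.86 ± 0.09 from DD16 (3.62-fold, adjusted p = 0.00063), the largest rise from DD16 to DD23 among the 41 genes. The chaperonin-like Bbs10 and Bbs12, which help assemble the complex, rose by 0.57 and 0.58, having differed by -0.10 and -0.01 from DD10 to DD16. BBSome subunits that carry other names were in a list of 22 further transport genes. Among them Ttc8, which encodes the subunit BBS8, rose by 1.43 (adjusted p = 0.00075), while Bbip1, which encodes the smallest subunit, differed by 0.08 and did not pass. Mkks, the third BBS chaperonin, fell by 0.78 from DD10 to DD16 (adjusted p = 0.0028) and differed by 0.04 from DD16 to DD23.

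**Figure D2:**
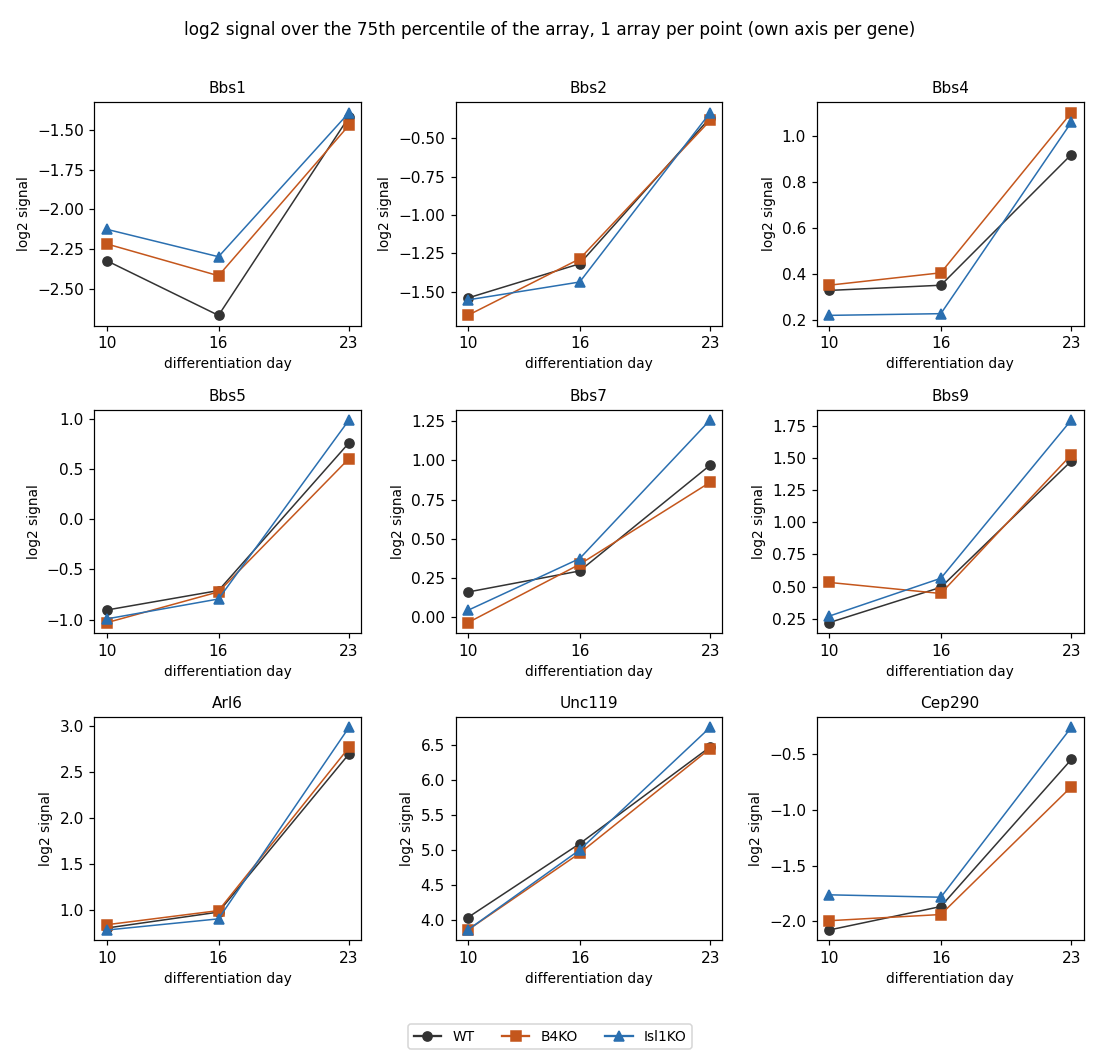
log2 signal over the 75th percentile of the array (vertical axis, its own range per gene) against differentiation day for the 6 BBSome genes, Arl6, Unc119 and Cep290. Each point is 1 array and lines join the arrays of WT, B4KO and Isl1KO. In each of the 9 genes the 3 DD23 values lie above the 3 DD16 values; of the 9, Unc119 is the one called higher from DD10 to DD16 as well.

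Carriers of lipid-modified proteins split. Unc119, which shuttles the acylated transducin subunit of photoreceptors, rose in both steps. It read 4.03, 3.86 and 3.86 in WT, B4KO and Isl1KO at DD10, 5.09, 4.95 and 5.00 at DD16, and 6.47, 6.45 and 6.75 at DD23. The 3 days did not overlap, and each step was several times the gap between lines, 1.10 ± 0.10 (adjusted p = 0.0012) and 1.54 ± 0.10 (adjusted p = 0.00075). From DD10 to DD23 this came to 6.24-fold, the largest change among the 41 genes, and the second Unc119 probe gave steps of 1.08 and 1.70. Arl3, the GTPase that releases such cargo inside the cilium, did not pass in either step (-0.14 and -0.12), and from DD10 to DD23 it was lower by 0.26 (adjusted p = 0.035). Arl13b, the exchange factor of ARL3, was higher by 0.25 over the same interval (adjusted p = 0.035).

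Of the 3 connecting-cilium genes, Rpgr, Rpgrip1 and Lca5, all were called higher at DD23 than at DD16. Rpgr, the X-linked retinitis pigmentosa gene, fell by 0.26 from DD10 to DD16 and rose by 0.30 from DD16 to DD23, so that DD23 differed from DD10 by 0.04. Another Rpgr probe gave 0.04 in the first step and did not pass. Lca5, which encodes lebercilin, rose by 0.53. Rpgrip1, which anchors RPGR in the connecting cilium, rose by 1.60 ± 0.12 (3.02-fold, adjusted p = 0.00084) after a difference of -0.07 from DD10 to DD16.

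The Rpgrip1 value depends on the probe. The array has 4 Rpgrip1 probes, and the first 30 bases of each 60-base probe are given from 5′ to 3′ with the whole probe's position on the plus strand of mouse chromosome 14 (build mm9), in gene order, to show that they are different sequences:
Dimmest probe, chr14:52754222-52754281: aaatcttaataatttggtaaccaagtagtt
Second dimmest probe, chr14:52758418-52758477: tcaagatggaaagctgaagtttcaagacac
Second brightest probe, chr14:52779875-52779934: tgaagatctgttttcatgaaagtacaagtt
Brightest probe, chr14:52780546-52780605: agaagagacaatggtaatttgtgtttgagc
The brightest probe, used above, read 3.20, 3.32 and 3.22 at DD10 and 3.14, 3.24 and 3.16 at DD16, then 4.88, 4.54 and 4.90 at DD23 (WT, B4KO, Isl1KO). The second brightest, which lies next to it, read -4.47, -4.01 and -4.26 at DD10, where it was well above background on 2 of 3 arrays, 0.13, 0.23 and -0.12 at DD16, and 3.30, 2.96 and 3.41 at DD23. Its steps were 4.33 and 3.14, against -0.07 and 1.60 for the brightest. The second dimmest probe was well above background on 0 of 3 arrays at DD10 and on all arrays later, and was at least 21.4-fold higher at DD23 than at DD10. The dimmest was at least 7.86-fold higher. From DD16 to DD23 the second dimmest and second brightest probes rose by 3.06 and 3.14 (adjusted p = 0.00069 and 0.00067). The dimmest was well above background on 1 of 3 DD16 arrays, so its DD16 level is not given. A lower bound here sets each dim DD10 value to the lowest signal well above background on its array. From DD10 to DD16 the means of the second dimmest and second brightest probes were higher and that of the brightest was not. In RefSeq the gene Supt16 overlaps the 3′ end of Rpgrip1 on the opposite strand. The Supt16 probe fell by 0.39 from DD10 to DD16 and by 1.05 from DD16 to DD23, and its part in the Rpgrip1 readings was not tested.

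**Figure D3:**
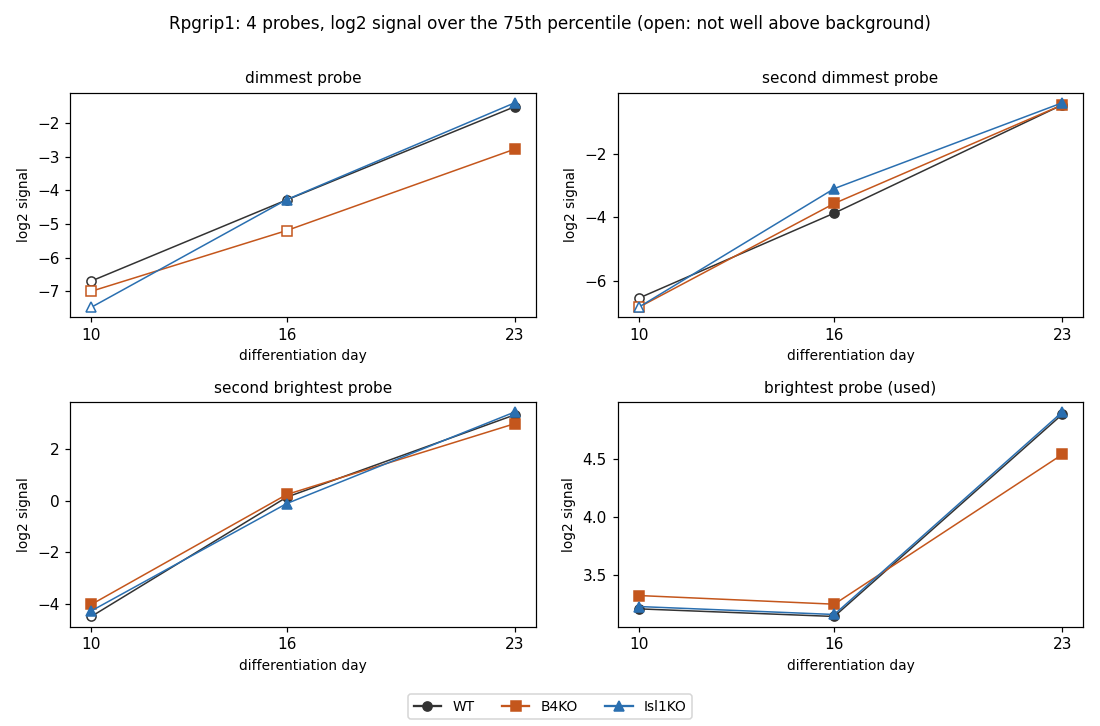
log2 signal over the 75th percentile of the array against differentiation day for the 4 Rpgrip1 probes, from the dimmest to the brightest, each with its own vertical range. Points are single arrays of WT, B4KO and Isl1KO, open where the probe was not well above background. The second dimmest and second brightest probes have a higher mean at each later day, while the brightest is level from DD10 to DD16 (-0.07) and rises by 1.60 from DD16 to DD23.

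Among the 11 genes of IFT-B, the larger IFT complex, that the rule names, more passed in the first step than in the second. The difference of IFT-B from the BBSome was not tested. From DD10 to DD16, 7 of these 11 genes fell and 0 rose, with a median difference of -0.33. The 7 were Ift20, Ift27, Ift46, Ift57, Ift74, Ift80 and Ift81, and the differences of the other 4 ran from -0.28 (Ift172) to 0.15 (Ift52). Hspb11 and Ttc26, IFT-B genes under other names in the list of further transport genes, rose by 0.67 and fell by 0.47 from DD10 to DD16. Of other such genes, Cluap1 was higher and Traf3ip1 lower at each later day in each line. Ttc30a1 and Ttc30b were lower at DD16 than at DD10 in each line and higher at DD23 than at DD16. Ttc30b read -2.12, -2.35 and -2.57 at DD16 and -1.30, -1.12 and -1.21 at DD23 (WT, B4KO, Isl1KO). Of the 11 genes, Ift22 and Ift81 rose from DD16 to DD23, by 0.38 and 0.40, 1 fell and 8 did not pass. The median was 0.11. Ift74, a core subunit that binds tubulin together with IFT81, fell in both steps. It read 2.02, 2.05 and 2.09 in WT, B4KO and Isl1KO at DD10, 1.62, 1.76 and 1.75 at DD16, and 1.07, 1.35 and 1.05 at DD23. The days did not overlap, and DD23 was 1.86-fold below DD10 (-0.90 ± 0.09, adjusted p = 0.00039). Its partner Ift81 fell by 0.48 and then rose by 0.40, ending 0.08 below its DD10 level (not passing). From DD10 to DD23, 1 of the 11 IFT-B genes was higher and 5 were lower. The 1 was Ift22, by 0.39, and a second Ift22 probe gave -0.10 and did not pass. The number of IFT-B genes called lower from DD10 to DD16 was 3 without WT or Isl1KO at DD10 or at DD16, 4 without B4KO at either day and 6 without any DD23 array. It was 2 within the slide of WT and Isl1KO, and the median stayed between -0.33 and -0.27 in all of these.

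Ift27, which links the BBSome to outgoing trains, read 4.07, 4.18 and 4.11 at DD10 and 3.32, 3.56 and 3.36 at DD16 in WT, B4KO and Isl1KO. The days were apart by 0.71 ± 0.07 (1.63-fold lower at DD16, adjusted p = 0.0017), and the DD23 values of 3.41, 3.58 and 3.31 were like those at DD16. A second probe assigned to Ift27, from the cDNA clone AK044278, moved the opposite way, by 0.56 (adjusted p = 0.0077), so the fall was seen with the brighter of the 2 probes only.

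The return arm of transport showed no common direction. Of the 3 IFT-A genes that the rule names, 0 passed from DD10 to DD16. Of these, Ift122 alone passed from DD16 to DD23, rising by 0.52 (adjusted p = 0.0029), while Ift140 and Ift43 differed by -0.06 and -0.12. Wdr19, an IFT-A gene under another name, read 1.52, 1.63 and 1.43 in WT, B4KO and Isl1KO at DD16 and 2.06, 2.24 and 2.11 at DD23. Wdr35, likewise of IFT-A, was higher at DD23 than at DD16 in each line and Ttc21b was lower. Both dynein-2 genes that the rule names fell from DD10 to DD16. The heavy chain Dync2h1 fell by 0.30 and the light intermediate chain Dync2li1 by 0.37, and Dync2li1 rose again by 0.43. A dimmer Dync2h1 probe gave 0.05 and did not pass. Another dynein-2 subunit gene, Wdr60, was in the list of other transport genes and had the largest rise there. It read 0.29, 0.24 and 0.37 at DD16 and 2.69, 2.56 and 2.99 at DD23, higher by 2.45 ± 0.11 (adjusted p = 0.00052). Among the 22 genes of that list, which also holds the kinesin-2 subunits, 2 rose and 4 fell from DD10 to DD16 (median -0.09), and 8 rose and 1 fell from DD16 to DD23 (median 0.10). The kinesin-2 genes Kif3b and Kifap3 were among the 8, by 0.61 and 0.44, while Kif3a and Kif17 differed by -0.26 and 0.14 and did not pass.

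The 9 transition-zone genes went in different directions. From DD16 to DD23, Cep290, Nphp4, Rpgrip1l, Tctn1 and Mks1 rose, Tmem67 fell, and Tctn2 and Tctn3 were among those that did not pass. The other Tctn2 probes all read higher at DD23 than at DD16 in each line. One of them, well above background on every array, read -1.42, -1.59 and -1.38 in WT, B4KO and Isl1KO at DD16. At DD23 it read -0.65, -0.74 and -0.59. Cep290, whose loss causes Leber congenital amaurosis, read -2.08, -1.99 and -1.76 in WT, B4KO and Isl1KO at DD10. It read -1.87, -1.94 and -1.78 at DD16 and -0.55, -0.79 and -0.26 at DD23. Every DD23 array was above every earlier one, by 1.33 ± 0.10 from DD16 (2.51-fold, adjusted p = 0.00085). Nphp4, a scaffold of the zone, rose by 1.02. Rpgrip1l read -1.18, -1.48 and -1.33 at DD10, -1.89, -1.93 and -1.72 at DD16, and -1.09, -1.37 and -0.93 at DD23, so it dipped by 0.51 and returned by 0.71. Tctn1 read 1.33, 1.39 and 1.15 at DD10, 0.65, 1.03 and 0.62 at DD16, and 1.38, 1.54 and 1.32 at DD23. It dipped likewise, by 0.53, and returned by 0.65, but its probes disagreed on both steps. In the first, 2 of the 3 others gave 0.04 and 0.49 and the third -0.80. In the second, the probe that gave 0.49 fell by 0.34 (adjusted p = 0.011). Tctn3 rose by 0.54 from DD10 to DD16 (-1.20, -1.08 and -1.28 at DD10, -0.65, -0.70 and -0.61 at DD16, and -0.86, -0.73 and -0.79 at DD23), which under spike-in scaling became 0.03 and did not pass. Tmem67 read -0.35, -0.56 and -0.42 at DD10, -0.59, -0.61 and -0.47 at DD16 and -0.94, -0.86 and -0.74 at DD23, a fall of 0.29. That last call (adjusted p = 0.036) was lost when any array other than WT at DD10 was left out.

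Other ciliopathy genes outside the naming rule were followed as a list. Of its 23 tested genes, 9 fell and 1 rose from DD10 to DD16 (median -0.15), and 5 rose and 1 fell from DD16 to DD23 (median 0.06). B9d1, a transition-zone gene, and Kif7, a ciliary-tip kinesin, were among the 9, falling by 0.94 and 0.83.

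Of the 14 genes that fell by DD16, 5 rose again by DD23, namely Dync2li1, Ift81, Rpgr, Rpgrip1l and Tctn1, and 1, Ift74, fell further. The 14 became 8 without WT at DD10 or at DD16, and 9 without B4KO or Isl1KO at either day. Of the 22 genes higher at DD23 than at DD16, 16 had not passed in the first step and 1, Unc119, had risen in it. There were 8 genes that passed in neither step.

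Markers of photoreceptors rose over the same days. Of the 11 tested, 9 were higher at DD16 than at DD10 and all 11 at DD23 than at DD16, with median differences of 4.34 (3.56 with markers below background at their bound) and 4.44. Their summed linear signal, in units of the array's 75th percentile, went from 1.72 to 3.32 at DD10, to 49.5 to 58.3 at DD16 and 295.0 to 367.4 at DD23. Gnat1 was not tested. Rcvrn was well above background on 3 of 9 arrays, all at DD23, and Nrl, Nr2e3 and Rp1 on 6, none of them at DD10. These markers passed the filter only through the days on which they were high, which favoured calls of a rise. Over the same days the 8 markers of dividing cells fell, 5 of 8 in the first step and 8 of 8 in the second, with a summed signal of 97.9 to 123.3, then 65.2 to 73.6, then 17.3 to 34.8. Other markers moved as well. Of 7 pigment epithelium markers 6 fell in the first step and 3 in the second, of 10 retinal progenitor markers 5 rose and 2 fell and then 7 fell, and of 5 Mueller glia markers 1 rose and 1 fell and then 3 rose. Of 6 choroid plexus markers 3 rose and 1 fell and then 2 rose, and of 5 bipolar cell markers 3 rose and 1 fell and then 4 rose and 1 fell. The summed signal of the choroid plexus markers was 47.5 to 62.1, then 96.6 to 116.8, then 146.7 to 253.3. A summed signal is weighted to its brightest probes, whose brightness does not rank genes by RNA. At DD23 these were the probes of Ttr and Otx2, a factor that also acts on photoreceptor genes. In WT, Folr1, Clic6 and Kcnj13 went from 2.64, 2.22 and -0.60 at DD10 to 1.51, -0.44 and -1.56 at DD23. They were lower at DD23 in Isl1KO too, while in B4KO Folr1 and Kcnj13 were higher. The summed signal of the pigment epithelium markers was 48.6 to 53.2, then 14.8 to 21.8, then 7.44 to 12.3. The part of these markers' cells in the ciliary values was not tested. A list of 16 tested genes of the photoreceptor cilium and its lipid cargo had 8 higher and 3 lower at DD16 than at DD10, with a median of 0.54, and 12 higher and 1 lower at DD23 than at DD16, with a median of 1.07. Rp1, an axonemal gene of photoreceptors that is also among the 11 markers, rose by 5.01 from DD16 to DD23, and Tulp1 by 3.07. Rp1l1 was at least 25.3-fold higher at DD16 than at DD10.

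RefSeq promoter windows (assembly GRCm38.p6, 250 bases before to 50 after a gene's start, 300 in all) were matched for 34 of the 42 names and searched on both strands for motifs of factors that act on ciliary or photoreceptor genes. GTTGCC, a site of RFX factors, was in 47.1% of these 34 genes (16) and in 14.1% of all genes with a window. An inverted pair of such sites, GTNNCC followed after 0 to 3 bases by GGNNAC, was in 32.4% (11), against 4.39%, and can overlap the first motif. TAATCC, the core site of CRX and OTX2, was in 8.82% (3), against 8.14%. A match shows letters in the window and not binding. These stretches lie before the gene start, in capitals the paired sites of Bbs7, Ift57 and Tctn3 or the CRX and OTX2 core, here on the opposite strand as GGATTA, of Rpgrip1 and Unc119, and are shown because these genes moved differently:
Bbs7, chr3:36613477-36613530, minus strand: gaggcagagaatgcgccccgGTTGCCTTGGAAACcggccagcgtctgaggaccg
Ift57, chr16:49699187-49699240, plus strand: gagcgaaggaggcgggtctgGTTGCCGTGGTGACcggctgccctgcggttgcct
Tctn3, chr19:40612339-40612391, minus strand: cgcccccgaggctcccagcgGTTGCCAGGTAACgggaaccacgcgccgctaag
Rpgrip1, chr14:52110855-52110900, plus strand: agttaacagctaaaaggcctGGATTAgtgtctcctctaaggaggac
Unc119, chr11:78345446-78345491, plus strand: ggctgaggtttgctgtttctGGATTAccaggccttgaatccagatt
Bbs7 rose from DD16 to DD23, Ift57 fell from DD10 to DD16 and Tctn3 rose in that step, each with the paired motif. Of the 16 genes with GTTGCC 7 were higher at DD23 than at DD16 (median 0.20), and of the 18 without it 12 (median 0.57). Of the 11 genes with the pair 8 were higher at DD23 than at DD16, and of the 23 without it 11. The 3 genes with TAATCC, Bbs1, Rpgrip1 and Unc119, were all among the risers, beside 16 of the 31 without it.

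Few of these genes were called between a knockout line and WT. Few of all genes were called higher in B4KO, or called at all in Isl1KO, either. In B4KO, 3 of 41 genes were higher than in WT and 0 were lower, where 3.99% of all genes were called higher and 18.0% lower. Among the 18852 genes that, like all 41, were well above background on all 9 arrays, 7.44% were called higher, and 4 of the 41. At an unadjusted p under 0.05 the number passing in either direction was 5. Arl3 was the clearest of the 3. It read 5.12, 5.06 and 4.77 in WT at DD10, DD16 and DD23, 5.67, 5.44 and 5.45 in B4KO, and 5.11, 4.98 and 4.91 in Isl1KO. All B4KO values exceed all others, by 0.54 ± 0.08 from WT (1.45-fold, adjusted p = 0.0058), and the second Arl3 probe gave 0.70 (adjusted p = 0.0072). Ift122 read 1.53, 1.59 and 2.06 in WT and 1.87, 1.90 and 2.38 in B4KO over the days, with 1.45, 1.45 and 2.07 in Isl1KO. B4KO was higher than WT by 0.32 on average (adjusted p = 0.021). Ift52, a core IFT-B gene, read 0.34, 0.65 and 0.44 in WT and 0.80, 0.86 and 0.89 in B4KO, with 0.47, 0.56 and 0.56 in Isl1KO. B4KO was higher than WT by 0.37 (adjusted p = 0.022). For Ift122 the lines overlap across days but not within one. The calls of Ift122 and Ift52 were lost when B4KO or WT at DD10 or at DD23 was left out, which left 1 gene called, and that of Ift122 also without B4KO at DD16. Arl3 was called without any 1 array. The dimmer Ift52 probe gave 0.19 and did not pass (adjusted p = 0.14), and Ift122 has 1 probe. Of the photoreceptor markers 0 of 11, and of those of dividing cells 1 of 8 (higher), were called between B4KO and WT.

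**Figure D4:**
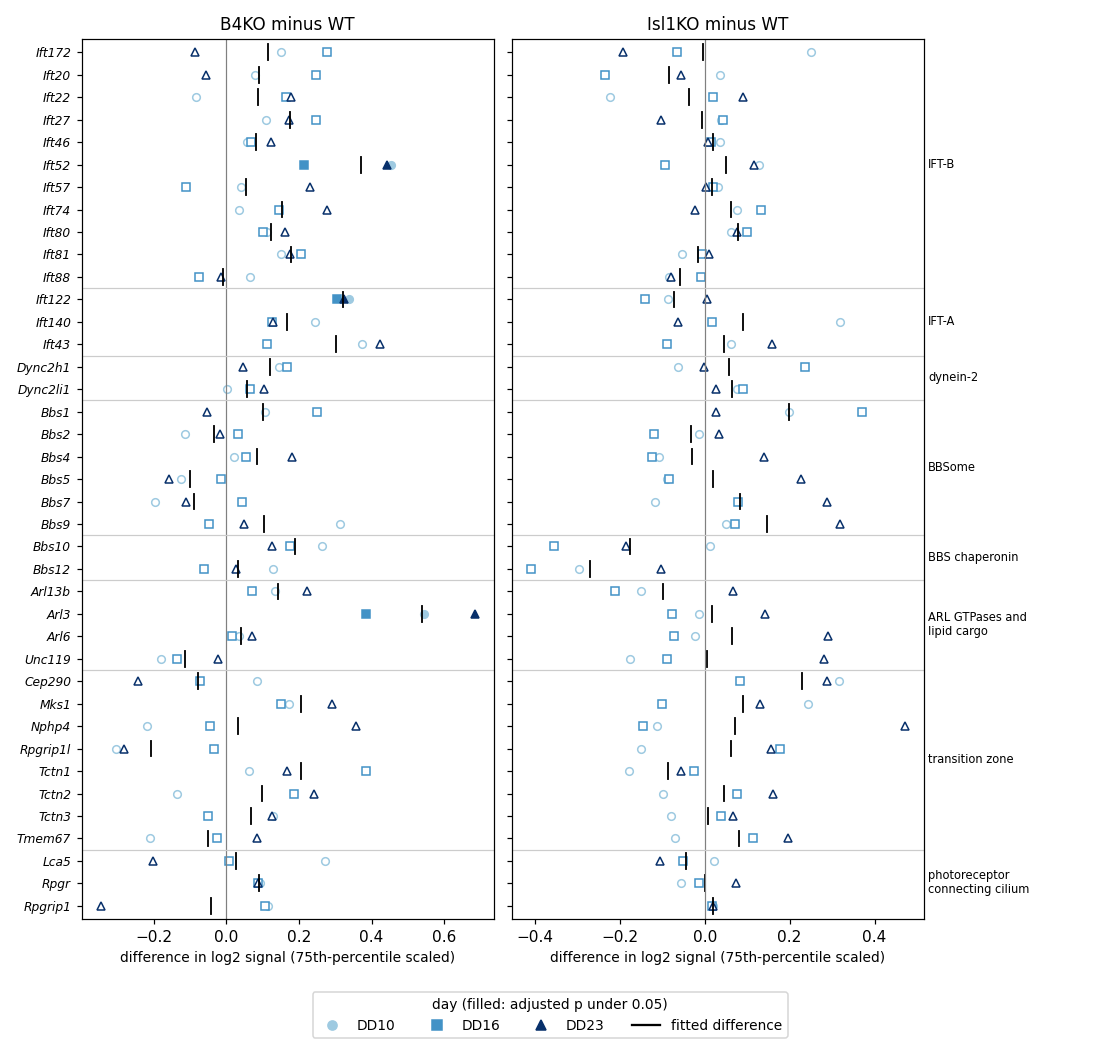
Difference in log2 signal from WT on the same day for 39 of the 41 tested ciliary genes (rows, grouped by role), in B4KO (left) and Isl1KO (right). Each marker is 1 day, filled where the adjusted p was under 0.05, and the black bar is the fitted difference. Arl3, Ift52 and Ift122 are filled in the B4KO panel, where all 3 days lie to the right of 0, and no gene is filled in the Isl1KO panel.

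Isl1KO had 0 genes called higher and 0 lower than WT by limma, with 1 at an unadjusted p under 0.05, where 0.00424% and 0% of all genes were called. With no filter on dim probes, 4548 of 37283 genes were called between Isl1KO and WT, and 1 ciliary gene. Dropping the filter added Ift88os, which was not well above background on any array, to the ciliary genes tested. Its readings ran from -7.44 to -7.16 in Isl1KO and from -7.00 to -6.21 in WT. The part of dim probes in these unfiltered calls was not tested. Among the largest differences with the same sign on all 3 days were those of Bbs12 (-0.27) and Cep290 (0.23). Bbs12 read 0.05, 0.15 and 0.60 in WT over the days and -0.24, -0.26 and 0.49 in Isl1KO. Its lines overlap across days, and the difference did not pass (adjusted p = 0.56). The comparison of Isl1KO with B4KO shares its B4KO arrays with that of B4KO with WT and likewise lies across slides. There Isl1KO had 4 genes lower and 0 higher, where 3.81% and 18.1% of all genes were called. These were Arl3 (-0.52), Ift122 (-0.40), Bbs10 (-0.36) and Ift52 (-0.32). Bbs10 read -1.70, -1.74 and -1.27 in B4KO and -1.96, -2.27 and -1.58 in Isl1KO over the days, and was lower on each day (adjusted p = 0.036). An F test over the lines called 3 of 41, Arl3, Ift122 and Ift52, beside 20.2% of all genes. Whether a knockout's difference from WT at DD23 departed from that at the earlier days was tested in a second model. It called 0 of 41 genes in B4KO and 0 in Isl1KO and 0% of all genes in each. This model leaves 2 residual degrees of freedom, so the absence of calls does not show that the lines followed the same course.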

How the data were processed

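Single-colour Agilent arrays were scanned, and the spot values were extracted with Agilent Feature Extraction (version 12.0.3.1), per the submitters' processing notes. The processed intensity was background-subtracted with no scaling between arrays, and per the file headers raw mean and background intensity and other spot flags stood beside it. A table deposited by the authors held a ratio of that signal to 1 constant per array, as the values show.

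Spots of a probe were averaged and 102 of 56605 gene probes, flagged as outliers on an array, were left out. Names were taken by RefSeq accession for 32921 probes. On the log2 scale, each array's 75th percentile over gene spots was subtracted. Each gene was represented by its brightest probe well above background on at least 3 arrays. Genes were tested with limma (version 3.58.1, R 4.3.3), with line and day as additive terms and Benjamini-Hochberg adjustment over 23593 genes at 0.05. With 1 sample per line and day, the spread is the departure from additivity (4 residual degrees of freedom), which may be technical, and the number of arrays limits precision. SE is that of the model. Alternatives changed the scaling, background, filter, probe choice and samples. The test was checked on simulated data. Every-sample values are given for members among the 4 largest rises or falls between days that passed with the same sign in all lines, for those passing between lines or among the 3 largest such differences, and for some others. Of other lists the 2 largest rises and falls were to be named. Bbip1, Cluap1, Folr1, Kcnj13, Kif3a, Kif3b, Kif17, Kifap3, Ttc21b, Ttc30a1, Ttc30b, Wdr19 and Wdr35 were added after their values were seen. So were the later or earlier steps of genes named by that rule. The members and lists were chosen with earlier results of these data known. Single results of 2 members, which stay in the counts, are not reported here.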

Additional observations from a re-analysis of the deposited data

How the results depend on the processing

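The number of ciliary genes higher at DD23 than at DD16 stayed between 19 and 24 under all alternatives (22 as reported), while other counts moved. With spike-in scaling, chosen after seeing the data, 1 gene was higher and 37 lower at DD16 than at DD10, 1 was lower at DD23 than at DD16, and 10 were higher and 21 lower at DD23 than at DD10. It also gave 1 gene higher in B4KO than in WT and, for Isl1KO against B4KO, 1 higher and 2 lower. The mean of all probes gave 4 higher and 9 lower at DD16 than at DD10, 6 lower at DD23 than at DD10, 2 lower in B4KO than in WT and 2 higher in Isl1KO than in B4KO. With no filter these were 8 lower at DD16, 1 lower at DD23 than at DD16, 7 lower at DD23 than at DD10, 1 higher in B4KO than in WT, 1 lower in Isl1KO than in WT and 2 lower in Isl1KO than in B4KO; the median of all genes moved to 0.15 at DD16 minus DD10 and -0.11 for B4KO minus WT. Within the slide of WT and Isl1KO, 5 were lower at DD16, 1 at DD23 than at DD16, and 7 at DD23 than at DD10. Quantile normalization gave 7 lower at DD23 than at DD10. Centring on the median gene gave 8 higher in B4KO than in WT, 9 lower in Isl1KO than in B4KO and 7 in the F test over lines. Normexp gave 6 higher in B4KO, 1 higher in Isl1KO than in B4KO and 5 in that F test, and an intensity trend 5 higher in B4KO and 8 lower in Isl1KO than in B4KO. The calls over all 23593 genes moved too. Between B4KO and WT, both directions together, they were 7023 with centring, 6241 with normexp and 6311 with the trend. Between Isl1KO and B4KO they were 5906, 5760 and 5803.

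Leaving out 1 array at a time gave 8 to 13 lower at DD16 than at DD10, 1 to 2 lower at DD23 than at DD16, 6 to 11 lower at DD23 than at DD10, 1 to 4 higher in B4KO than in WT, 1 to 3 lower in Isl1KO than in B4KO, and 0 to 3 in the F test over lines. Over all 23593 genes, both directions together, these refits called 5899 to 9078 at DD16 minus DD10. Between B4KO and WT they called 3417 to 4621. The departure at DD23 was not refitted without single arrays. With other probes or their mean some directions reversed. Ift27 gave 0.56 at DD16 minus DD10 and 0.87 at DD23 minus DD10 with its other probe, and 0.091 at DD23 minus DD10 with the mean. Tctn1 gave 0.044 and 0.49 at DD16 minus DD10 with other probes. Other probes of Rpgr and Dync2h1 (0.04 and 0.05 at DD16 minus DD10), Ift22 and Ift140 (-0.10 and 0.41 at DD23 minus DD10) and Bbs1 (-0.34 at DD23 minus DD16) also had the opposite sign and did not pass, and 1 of Tctn1 fell by 0.34 at DD23 minus DD16. The cause of these changes was not tested. Signal over background did not limit the 41 tested genes, which were well above background on all arrays, but 1 array per line and day limits every difference between lines.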

Other observations

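Genes of the RFX family and of other regulators of ciliary gene transcription fell more often than they rose from DD10 to DD16. Of 9 tested, 0 were higher and 5 lower at DD16 than at DD10, and 2 were higher and 2 lower at DD23 than at DD16. Gmnc, which starts the multiciliated cell programme, read 1.62, 0.43 and 0.68 in WT, B4KO and Isl1KO at DD10, was not well above background on any array at DD16 or DD23, and fell to a level at least 47.2-fold below DD10 by DD16. Foxj1, the regulator of motile cilia, fell by 1.74 and Rfx4 by 2.34 in the same step. Gmnc passed the filter of 3 arrays only through DD10, the day on which it was high. The filter therefore favoured its place among the 5 lower genes here and among the lower multiciliated markers below. Rfx1 rose by 0.70 and Rfx5 by 0.52 from DD16 to DD23, while Rfx2 fell by 1.08 and Rfx7 by 0.73. Rfx5 was well above background on 7 of 9 arrays. It is listed as a member of the RFX family, and a role of it in cilia is not shown here. Among 13 tested markers of multiciliated cells, some of which are also these regulators, 5 were higher and 3 lower at DD16 than at DD10, and 1 was higher and 4 lower at DD23 than at DD16. Rsph1, a radial spoke gene, rose by 2.70 and then fell by 0.91.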
